A study of Homo sapiens with 8 samples.

Results

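Ribosome footprints were examined for 39 genes that encode actins, myosins, thin filament regulators and the proteins that anchor actomyosin, out of 20719 genes in the count tables. The genes were chosen by name, with earlier results of these data known. Of them, 12 are used mainly in smooth muscle, 12 mainly in striated muscle and 15 in most cell types. The cells were G401, a line from a rhabdoid tumor of the kidney that has lost SMARCB1, a subunit of the mSWI/SNF chromatin remodeling complex. They carried a Tet-On construct for either SMARCB1 or GFP and received 0.1 μg/ml doxycycline (Dox), or as much DMSO, for 12 h. This gave 4 groups of 2 libraries each: SMARCB1 DMSO, SMARCB1 Dox, GFP DMSO and GFP Dox. Each condition pooled the cells of 6 plates, and the sources used here do not give whether either line is 1 clone. The study asked which mRNAs change in translation once SMARCB1 returns.

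Actin filaments form the track on which myosin II pulls. Tropomyosin lies along the filament and, with troponin in striated muscle or with caldesmon and calponin in smooth muscle, sets when myosin can bind. In smooth muscle and in cells that are not muscle, phosphorylation of the myosin light chain by myosin light chain kinase starts contraction. Many of these genes carry a CArG box in their promoter, the site of serum response factor (SRF), whose cofactors of the MRTF family respond to free actin.

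Counts on coding sequence ranged from 5924443 to 14000039 per library (median 9170557.5), and the 39 genes together received 1.09% to 1.62% of them. The induced gene itself, SMARCB1, was read 1750 and 2553 times after Dox and 0 times in the 6 libraries without its induction. GFP Dox replicate 1 stood apart, with 56.4% of its alignments not unique against 25.6% to 39.7% elsewhere and the lowest correlation within its line. Among marker lists, the epithelial one summed to 1974 to 4240 CPM (counts scaled to a common library size), nearly all from KRT8 and KRT18, since KRT19, EPCAM and CDH1 had at most 11 counts in a library. The mesenchymal one summed to 1212 to 3384 CPM, nearly all from VIM, with CDH2 and FN1 at no more than 1 and 6 counts in a library and TWIST1 and SNAI2 at 0. MYOD1, MYF5, MYOG, MYOCD, NKX2-5 and TBX5 were at 0 in all 8 libraries. Summed levels were 0 to 1.32 CPM for the skeletal muscle list, 4.34 to 10.1 CPM for smooth muscle, 5.0 to 22.7 CPM for cardiac muscle (nearly all from TNNI3), 0.347 to 1.59 CPM for endothelium and 0 to 0.486 CPM for blood. CPM uses totals scaled by the trimmed mean of M-values (TMM). Levels of different genes are compared as CPM per kb of coding sequence, where the length joins the exons of all isoforms, so that genes with many alternative exons are understated.

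The 4 muscle actins were nearly unoccupied. ACTC1, the cardiac actin, had 0 counts in all 8 libraries, which allows up to 0.0392 CPM over all libraries. ACTA1, the skeletal actin, had 1 count in SMARCB1 Dox replicate 2, 2 in GFP DMSO replicate 2 and 0 in the rest. ACTA2, the vascular smooth muscle actin, had 1 and 9 counts in SMARCB1 DMSO, 13 and 4 in SMARCB1 Dox, 7 and 8 in GFP DMSO, and 10 and 1 in GFP Dox. ACTG2, the enteric smooth muscle actin, had 7 and 30, 29 and 10, 11 and 40, and 10 and 11 counts in the same order of groups. By contrast ACTB, a cytoplasmic actin of nearly all cells, reached 1103 to 2423 CPM per kb, and ACTG1, the other cytoplasmic actin, 563 to 1310.3, against 0.652 to 2.0 for ACTG2. Muscle actins thus took between 0.0491% (95% Wilson interval 0.0249% to 0.0969%, SMARCB1 DMSO replicate 1) and 0.170% (0.110% to 0.263%, GFP Dox replicate 1) of the footprints on the 6 actin genes. Intervals and limits cover counting error only. In these bulk samples, fewer cells that express a gene cannot be told apart from less of its RNA per cell.

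The actin genes are close copies of each other, so how far a footprint could be assigned to one of them matters for these low counts. Over 1125 aligned coding bases the 6 genes were 82.0% to 91.3% identical in pairs, with 805 positions the same in all. The stretch of 60 bases with the fewest differences starts at aligned codon 337 and is given on GRCh38, read 5′ to 3′ on the strand of the gene. Capitals mark its 8 positions at which the 6 genes do not all have the same base.
ACTA1 (chr1:229431559-229431618, minus strand): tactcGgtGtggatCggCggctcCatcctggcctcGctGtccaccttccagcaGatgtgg
ACTA2 (chr10:88935283-88935342, minus strand): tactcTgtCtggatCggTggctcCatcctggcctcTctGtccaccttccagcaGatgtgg
ACTC1 (chr15:34790472-34790531, minus strand): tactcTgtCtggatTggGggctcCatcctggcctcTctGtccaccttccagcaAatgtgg
ACTG2 (chr2:73919456-73919515, plus strand): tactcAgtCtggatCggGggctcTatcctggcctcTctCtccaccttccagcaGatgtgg
ACTB (chr7:5527808-5527867, minus strand): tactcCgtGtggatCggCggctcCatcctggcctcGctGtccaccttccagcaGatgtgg
ACTG1 (chr17:81510750-81510809, minus strand): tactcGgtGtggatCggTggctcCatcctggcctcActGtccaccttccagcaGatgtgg
A window of 28 bases, about the size of a footprint, in the coding sequence had an exact copy elsewhere in the genome or its transcripts for 13.4% of the windows of ACTA1, 3.17% of ACTA2, 7.43% of ACTC1 and 4.17% of ACTG2. The share was 50.8% for ACTB and 36.9% for ACTG1. The authors' counting sets aside reads that align to more than one place, so more of ACTB and ACTG1 than of the muscle actins was out of its reach. For ACTC1, most windows were unique and none had a read.

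**Figure D1:**
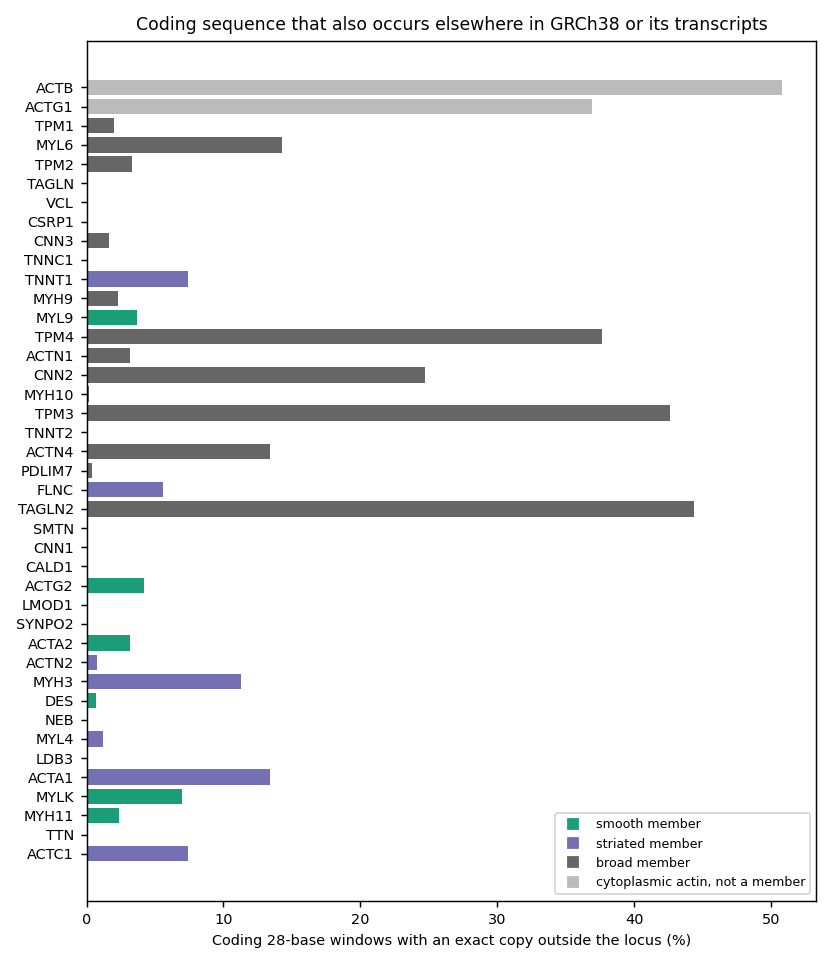
Percent of coding windows of 28 bases with an exact copy outside the gene's locus (x axis), for the 39 genes and the cytoplasmic actins ACTB and ACTG1 (y axis, ordered by footprint density). Colours give the muscle class. TAGLN2 (44.4%), TPM3 (42.6%) and TPM4 (37.6%) have the longest bars among the members.

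The same reading applies to other families. Copies were found for 44.4% of the windows of TAGLN2, 42.6% of TPM3, 37.6% of TPM4, 24.7% of CNN2, 14.3% of MYL6, 13.4% of ACTN4 and 11.3% of MYH3, so the counts of these genes are uncertain in level. LDB3 shares 39.3% of its coding bases, by position, with the coding sequence of another gene. Strands were not compared, so whether reads there were left unassigned is not known.

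The thin filament regulators, 15 of the 39 genes, took 0.545% to 0.878% of all counts on genes, more than any other role in the set. TPM1, the main tropomyosin of these cells, ranged from 1876 to 3375 CPM per kb over the libraries, above 99.8% of the 11096 genes tested. TPM1 made up 61.7% to 69.1% of the summed density of the 4 tropomyosins, TPM2 23.2% to 29.8%, TPM4 4.02% to 6.34% and TPM3 2.63% to 3.15%. The order of the 4 was the same in all 8 libraries. TAGLN (SM22α), an actin-binding protein used as a smooth muscle marker, had 387 to 843 CPM per kb, whereas its relative TAGLN2 had 2.47 to 31.6. Among calponins, CNN3 held 57.8% to 82.2% of the family's density, CNN2 17.2% to 41.2%, and CNN1, the form of differentiated smooth muscle, 0.591% to 1.07%. SMTN (smoothelin, 6.46 to 11.4 CPM per kb), CALD1 (caldesmon, 1.51 to 6.04) and LMOD1 (an actin nucleator of smooth muscle, 0.460 to 1.51) were below the median of the tested genes, 17.2 CPM per kb.

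The 3 troponin subunits in the set were densely occupied, unlike the giant proteins of the sarcomere. TNNC1, the calcium sensor of slow and cardiac muscle, ranged from 207 to 352 CPM per kb. TNNT1, the slow skeletal subunit that binds tropomyosin, ranged from 179 to 365 CPM per kb, and TNNT2, its cardiac counterpart, from 37.4 to 126. These densities exceeded those of 95.2%, 95.2% and 83.8% of the tested genes. The other troponin subunits were lower. TNNI3 had 6.82 to 30.9 CPM per kb, TNNC2 4.18 to 33.0 and TNNI1 2.38 to 16.3, while TNNT3 and TNNI2 had at most 35 and 1 counts in a library. TTN and NEB, the giant proteins that set sarcomere and thin filament length, had at most 13 and 28 counts in a library over coding sequences of 114586 and 25779 bases. DES, the muscle intermediate filament, had at most 4 counts, as 0 and 4, 4 and 1, 4 and 2, and 1 and 0 in SMARCB1 DMSO, SMARCB1 Dox, GFP DMSO and GFP Dox.

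Among myosins, the chains of cells that are not muscle held most footprints. MYL6, the essential light chain of smooth muscle and nonmuscle myosin, had 1454 to 2790.4 CPM per kb and MYL9, a regulatory light chain, 123 to 290.0. MYH9 and MYH10, the heavy chains of nonmuscle myosin IIA and IIB, had 134 to 287 and 97.7 to 171 CPM per kb. Together with MYH3 and MYH11 they form the 4 heavy chains in the set, of which MYH9 held 55.6% to 64.4% and MYH10 35.5% to 44.2% of the density. MYH3, an embryonic skeletal heavy chain, had 6 to 53 counts, and MYH11, the smooth muscle heavy chain, had 2 counts in GFP DMSO replicate 1, 3 in GFP Dox replicate 2 and 0 elsewhere. MYL4, the atrial and embryonic light chain, had 1 count in SMARCB1 Dox replicate 1 and 1 in GFP Dox replicate 1. MYLK, the light chain kinase, had 5 and 5 counts in SMARCB1 Dox, 1 in GFP DMSO replicate 1 and 0 in the 5 other libraries. Over the 2 libraries its SMARCB1 Dox level was at least 3.44-fold that of SMARCB1 DMSO, taking 3 counts as the limit of 0 over the group. The 95% counting interval of that ratio starts at 2.31, and MYLK was too low to pass the filter on low counts. A fit by edgeR with no such filter tested 38 members. In it MYLK had no unadjusted p below 0.05 for Dox in the SMARCB1 line.

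Among cross-linkers and anchors, VCL (vinculin, which joins actin to adhesions) had 293 to 644 CPM per kb and CSRP1, a LIM protein on actin bundles, 302 to 656. ACTN1 and ACTN4, the nonmuscle α-actinins, had 103 to 229 and 39.8 to 113 CPM per kb, while ACTN2, the Z-disc form, had 0.327 to 1.02. FLNC, the muscle filamin, had 41.5 to 72.3 CPM per kb and PDLIM7, a PDZ and LIM domain scaffold, 47.5 to 63.4. SYNPO2 (myopodin, an actin bundler of smooth muscle and the Z-disc) had 0 to 2.13 CPM per kb, and LDB3 (ZASP, a Z-disc protein) at most 2 counts in a library. By class, the 15 broadly used genes took 0.979% to 1.47% of all counts on genes, the 12 striated genes 0.0717% to 0.122%, and the 12 smooth muscle genes 0.0383% to 0.0610%. In all, 31 of the 39 passed the filter on low counts, and 20 of these lay above the median density of the tested genes. The 8 that did not pass were ACTA1, ACTC1, DES, MYL4, LDB3, MYLK, MYH11 and TTN.

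**Figure D2:**
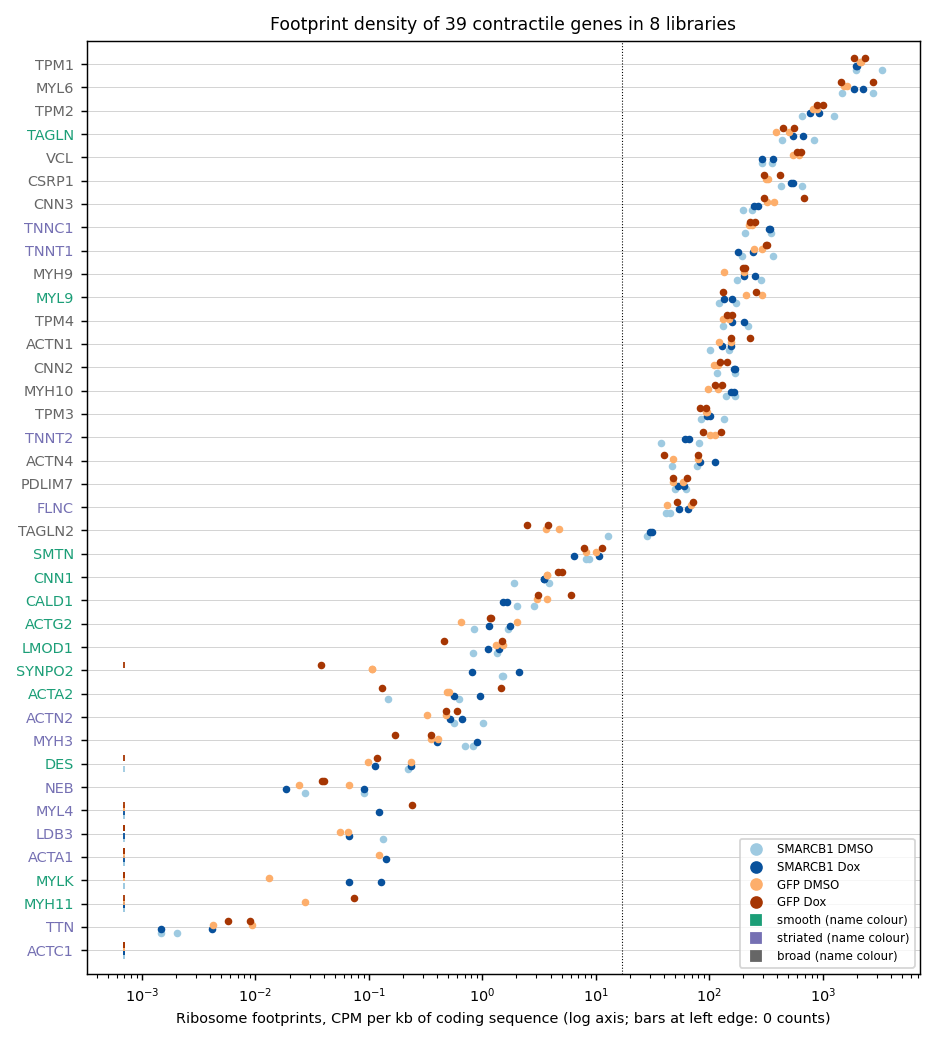
Footprint density in CPM per kb of coding sequence (x axis, log scale) of the 39 genes (y axis) in each of the 8 libraries, coloured by group, with 0 counts drawn as bars at the left edge. Name colours give the muscle class, and the dotted line is the median of the tested genes, 17.2. Broadly used genes other than TAGLN2, together with TAGLN, MYL9, FLNC, TNNC1, TNNT1 and TNNT2, lie right of the line, while muscle actins, MYH11, DES, TTN and NEB lie far left.

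Promoters of the set were searched for the CArG box, which is CC, then only A or T, then GG, 10 bases in all. This pattern covers both strands, although a single box need not read the same on each. Of 32 genes matched by symbol to the RefSeq promoter table (GRCh38.p14, 250 bases before to 50 after each start), 9 held a box in at least one promoter, 28.1%, against 1.60% of all genes in the table. Per promoter, the figures were 10 of 57 here and 454 of 35116 (1.29%) in the whole table. Boxes were found for ACTA1, ACTC1, ACTG2, MYLK, LDB3, ACTN1, CNN2, TPM4 and SMTN. Some of these promoters belong to starts inside the gene. That of MYLK lies at chr3:123620499-123620798, in a gene spanning chr3:123610049-123884332 on the minus strand. That of SMTN lies at chr22:31084746-31085045, in a gene spanning chr22:31064105-31104757 on the plus strand. Of the 27 members with a promoter that passed the filter on low counts, 5 held a box. Of the 5 with a promoter that did not pass, 4 held one. Passing the filter did not mean dense footprints, since ACTG2 and SMTN passed but lay below the median density of the tested genes. A box was thus present both at genes with dense footprints and at genes with next to none. The 250 bases up to the annotated start are shown for 2 nearly unoccupied actins and 2 densely occupied regulators, with the box in capitals. A match describes the letters and was not tested as a site.
ACTC1 (chr15:34795550-34795799, minus strand): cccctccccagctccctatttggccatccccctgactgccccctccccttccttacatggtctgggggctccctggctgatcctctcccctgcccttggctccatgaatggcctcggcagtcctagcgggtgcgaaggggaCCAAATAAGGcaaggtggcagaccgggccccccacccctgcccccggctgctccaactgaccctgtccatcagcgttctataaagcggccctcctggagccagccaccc
ACTG2 (chr2:73892758-73893007, plus strand): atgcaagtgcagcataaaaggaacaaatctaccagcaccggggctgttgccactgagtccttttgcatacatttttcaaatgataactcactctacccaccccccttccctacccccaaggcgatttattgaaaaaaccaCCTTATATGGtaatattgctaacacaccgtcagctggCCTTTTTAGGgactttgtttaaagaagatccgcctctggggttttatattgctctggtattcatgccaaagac
CNN2 (chr19:1026358-1026607, plus strand): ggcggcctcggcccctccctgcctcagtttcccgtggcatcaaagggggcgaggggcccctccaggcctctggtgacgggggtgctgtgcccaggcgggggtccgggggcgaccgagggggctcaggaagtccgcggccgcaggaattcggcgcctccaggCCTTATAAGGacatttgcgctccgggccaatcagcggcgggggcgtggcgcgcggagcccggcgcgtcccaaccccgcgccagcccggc
TPM4 (chr19:16067288-16067537, plus strand): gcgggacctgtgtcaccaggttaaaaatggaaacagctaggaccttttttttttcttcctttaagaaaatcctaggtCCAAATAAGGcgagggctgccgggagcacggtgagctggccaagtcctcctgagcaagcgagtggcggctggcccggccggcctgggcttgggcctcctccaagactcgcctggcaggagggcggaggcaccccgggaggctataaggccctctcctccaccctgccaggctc
ACTC1, at 0 counts, and TPM4, at 132 to 221 CPM per kb, carry the same 10 letters. ACTG2, at 0.652 to 2.0 CPM per kb, holds 2 boxes.

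Induction of SMARCB1 was compared with DMSO in the SMARCB1 line by edgeR's quasi-likelihood test over all 8 libraries, calling a gene at a Benjamini-Hochberg adjusted p below 0.05 and a fold change above 2. None of the 31 tested members was called (0.018% of the 11097 genes tested were). In the main fit none had an unadjusted p below 0.05 either, against 4.97% of all genes, and DESeq2 called 0 as well. ACTN4 had one with no filter (as did 700 of 14323 genes) and with only the groups compared (616 of 10658). It also had one with the replicate number as a block (828 of 11097). The smallest p-values belonged to ACTN4, FLNC and TPM1. ACTN4 had 139 and 228 CPM in SMARCB1 DMSO and 244 and 332 in SMARCB1 Dox, so the groups did not overlap. Its log2 fold change was 0.65 (SE 0.35, edgeR adjusted p = 1). FLNC had 339.6 and 372 CPM with DMSO and 443 and 536 with Dox, again without overlap, at 0.46 (SE 0.28, edgeR adjusted p = 1). TPM1 had 3261 and 5640.0 CPM with DMSO and 3379 and 3308 with Dox, both within the DMSO range, at -0.41 (SE 0.29, edgeR adjusted p = 1). Without SMARCB1 DMSO replicate 2 the TPM1 value was 0.04.

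Over the 31 genes the log2 fold changes ran from -0.62 to 0.85 with a median of 0.03, beside -0.02 for all tested genes, and 18 lay above 0. Libraries did not overlap for 5 members, of which CNN3, ACTN4, FLNC and TAGLN2 were higher with Dox (17.3% of all tested genes were) and CALD1 lower (18.3%), against 35.6% of all tested genes in either direction. TAGLN2 had 8.51 and 18.8 CPM with DMSO and 20.8 and 19.8 with Dox. CALD1 had 7.51 and 5.22 CPM with DMSO and 3.93 and 4.28 with Dox. For the smooth muscle class the median was 0.02 over 9 genes, for the striated class 0.07 over 7 and for the broad class 0.03 over 15, and no class had a called gene. SMARCB1 DMSO replicate 2 was higher than replicate 1 for 15 of the 15 broad members. It was also higher for 7 of the 9 tested smooth members and 4 of the 7 tested striated members, which widens the spread within that group. Of the 15 broad members, replicate 2 was higher for 12 in SMARCB1 Dox, 10 in GFP DMSO and 4 in GFP Dox. The share of all tested genes is not given here, so these counts show no trait of the members. The 95% interval of the fold change stayed within 2-fold for 17 of the 31 genes and reached 2-fold or beyond for 14.

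Dox in the GFP line, the control for the drug and the construct, gave the same count. None of the 31 members was called by edgeR or DESeq2, 0% of all genes were called by edgeR, and none of the members had an unadjusted p below 0.05, against 2.16% of all genes. SYNPO2 lay outside the DMSO range, with 5 and 6 counts in GFP DMSO and 0 and 1 in GFP Dox, a ratio of 0.188 with a 95% counting interval of 0.00438 to 1.30. Its fitted log2 fold change was -2.23 (SE 1.31, edgeR adjusted p = 1), and it was -1.41 without GFP Dox replicate 1 and -5.09 without GFP Dox replicate 2, which leaves a group at 0 counts. ACTN1 had 374 and 485 CPM with DMSO and 704 and 476 with Dox, overlapping, at 0.46 (SE 0.28, edgeR adjusted p = 1). CNN3 had 368 and 316 CPM with DMSO and 682 and 299.8 with Dox, at 0.52 (SE 0.32, edgeR adjusted p = 1). The higher value of both ACTN1 and CNN3 was in GFP Dox replicate 1, the library that stood apart, and without it CNN3 was at -0.19. Libraries did not overlap for 5 members, TNNT1, CNN2, CNN1 and ACTN2 higher (13.1% of all tested genes were) and SYNPO2 lower (13.2%), against 26.3% in either direction. The median log2 fold change of the 31 was 0.11, beside 0.02 for all tested genes.

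**Figure D3:**
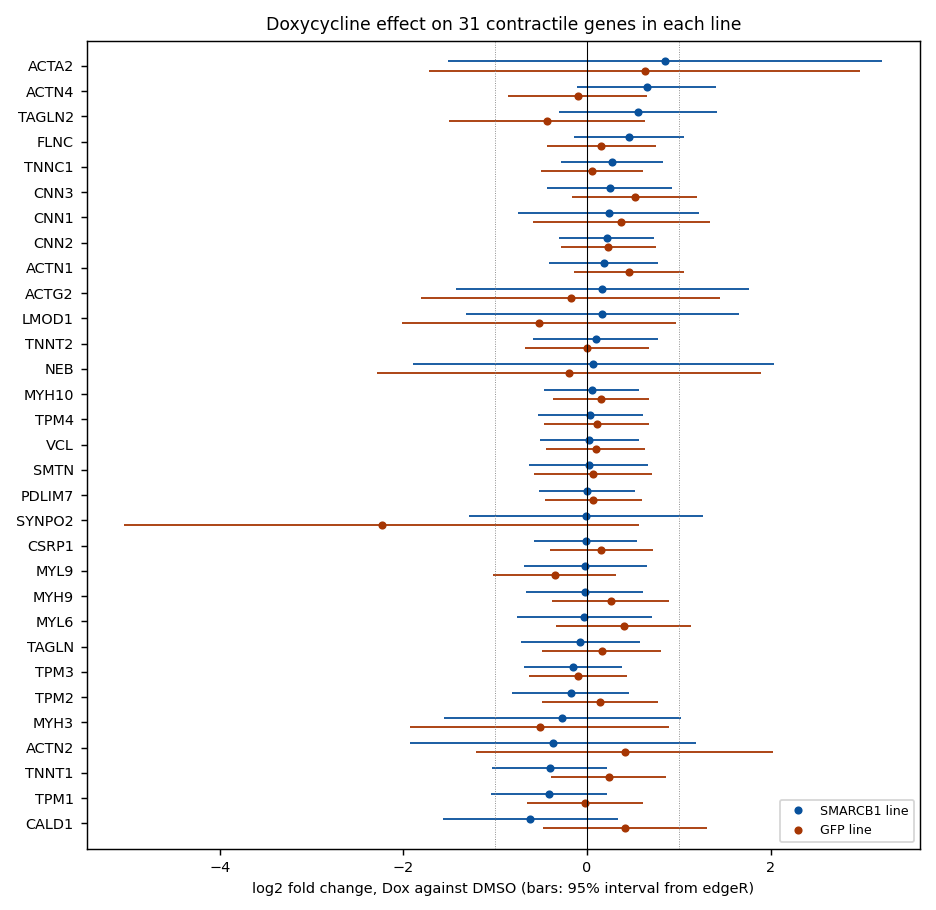
The log2 fold change of Dox against DMSO (x axis, bars give the 95% interval derived from edgeR's test) for the 31 tested genes (y axis) for each line. The points lie between -0.62 and 0.85 in the SMARCB1 line, and no gene passed the test in either line.

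The difference between the Dox effects of the 2 lines was tested directly. None of the 31 members passed in edgeR or DESeq2 (0% of all genes were called by edgeR). In the main fit 0 had an unadjusted p below 0.05, against 3.99% of all genes. ACTN4 had one with no filter (as did 673 of 14323 genes) and with the replicate number as a block (707 of 11097). The smallest p-values were those of CALD1, TNNT1 and TAGLN2. CALD1 was the only one of them whose Dox libraries lay below DMSO in the SMARCB1 line, while in the GFP line it had 7.98 and 9.73 CPM with DMSO and 15.7 and 7.99 with Dox, and the difference was -1.03 (SE 0.61, edgeR adjusted p = 0.981). TNNT1 had 212 and 399.7 CPM in SMARCB1 DMSO, 196 and 266 in SMARCB1 Dox, 274 and 319 in GFP DMSO, and 354 and 344 in GFP Dox, a difference of -0.64 (SE 0.41, edgeR adjusted p = 0.981). For TAGLN2 the difference was 0.99 (SE 0.64, edgeR adjusted p = 0.981). Single libraries moved these values: CALD1 was at -0.46 without GFP Dox replicate 1, TNNT1 at -0.11 without SMARCB1 DMSO replicate 2, and TAGLN2 at 0.55 without SMARCB1 DMSO replicate 1 and 1.69 without SMARCB1 DMSO replicate 2. A p that misses the threshold does not show that the lines respond alike: the 95% interval of the difference reached 2-fold or beyond for 23 of the 31 genes.

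The lines themselves differed in a few of these genes. TAGLN2 and SYNPO2 were higher in the SMARCB1 line than in the GFP line, both under DMSO and under Dox, and VCL was lower under Dox. In each of these comparisons 2 of the 31 tested members were called, both higher. SYNPO2 passed the filter on low counts through the SMARCB1 line alone, where it is high, so its call is not independent of that filter. Of all genes, 4.97% were called under DMSO (2.49% higher) and 6.08% under Dox (3.1% higher). By the adjusted p alone the members were 2 under DMSO, against 5.29% of all genes, and 3 under Dox, against 6.55%. With an unadjusted p below 0.05 they were 6, against 13.9%, and 7, against 18.7%. The line comparisons are drawn from the same libraries as the Dox comparisons and share groups with them. A line effect and anything else that differed between the 2 cultures cannot be told apart.

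TAGLN2, transgelin-2, had 8.51 and 18.8 CPM in SMARCB1 DMSO and 20.8 and 19.8 in SMARCB1 Dox, against 2.39 and 3.13 in GFP DMSO and 2.48 and 1.63 in GFP Dox. All 4 libraries of the SMARCB1 line lay above all 4 of the GFP line. The log2 difference was 2.32 under DMSO (SE 0.44, edgeR adjusted p = 0.00397) and 3.31 under Dox (SE 0.48, edgeR adjusted p = 0.000453). Leaving out GFP DMSO replicate 1 raised the adjusted p under DMSO to 0.0712, and leaving out SMARCB1 DMSO replicate 2 raised it to 0.107. Since 44.4% of its coding windows occur elsewhere, the level of TAGLN2 is uncertain.

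SYNPO2 had 35 and 76 counts in SMARCB1 DMSO and 99 and 20 in SMARCB1 Dox, against 5 and 6 in GFP DMSO and 0 and 1 in GFP Dox, again without overlap. No coding window of SYNPO2 was found elsewhere. Under DMSO the log2 difference was 3.79 (SE 0.72, edgeR adjusted p = 0.00439), and the adjusted p rose to 0.0657 and 0.0722 without GFP DMSO replicate 1 or 2. Under Dox it was 6.01 (SE 1.02, edgeR adjusted p = 0.0017), and because the GFP Dox libraries held 1 count in all, the ratio of counts was 83.5 with a 95% counting interval of 14.7 to 3324.

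VCL was at 998 and 1217 CPM in SMARCB1 DMSO and 1003 and 1253 in SMARCB1 Dox, against 1862 and 2093 in GFP DMSO and 2192 and 2035 in GFP Dox, so all libraries of the SMARCB1 line were lower. The log2 difference was -0.84 under DMSO (SE 0.25, edgeR adjusted p = 0.0815) and -0.91 under Dox (SE 0.25, edgeR adjusted p = 0.0467), a fold of 1.87 that is under the 2-fold minimum. Under Dox the adjusted p went up to 0.452 when a library was left out (SMARCB1 Dox replicate 1), to 0.190 without SMARCB1 Dox replicate 2 and to 0.0677 without GFP Dox replicate 1. It also missed the threshold with robust quasi-likelihood (0.0502), with at least 10 counts in every library (0.0768) and with only the groups compared (0.130).

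In 8 of the 31 tested members the 4 libraries of the SMARCB1 line did not overlap the 4 of the GFP line, against 17.6% of all tested genes. Of these, TAGLN2, SYNPO2, CSRP1 and MYH10 were higher in the SMARCB1 line (8.61% of all tested genes were), and VCL, CNN3, TNNT2 and CALD1 lower (8.95%). CSRP1 had 277 to 423 CPM in the SMARCB1 line and 195 to 271 in the GFP line, and MYH10 849 to 1027 against 588 to 776. TNNT2 had 46.2 to 101 CPM in the SMARCB1 line against 109 to 156, and CNN3 197 to 268 against 299.8 to 682. CALD1 had 3.93 to 7.51 CPM in the SMARCB1 line against 7.98 to 15.7 in the GFP line, and DESeq2 called it under Dox beside TAGLN2 and SYNPO2. By class, the median log2 difference under DMSO was -0.21 for smooth, 0.27 for striated and 0.31 for broad members, beside 0.02 for all tested genes. Under Dox the medians were 0.01, 0.15 and 0.15, beside -0.01.

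**Figure D4:**
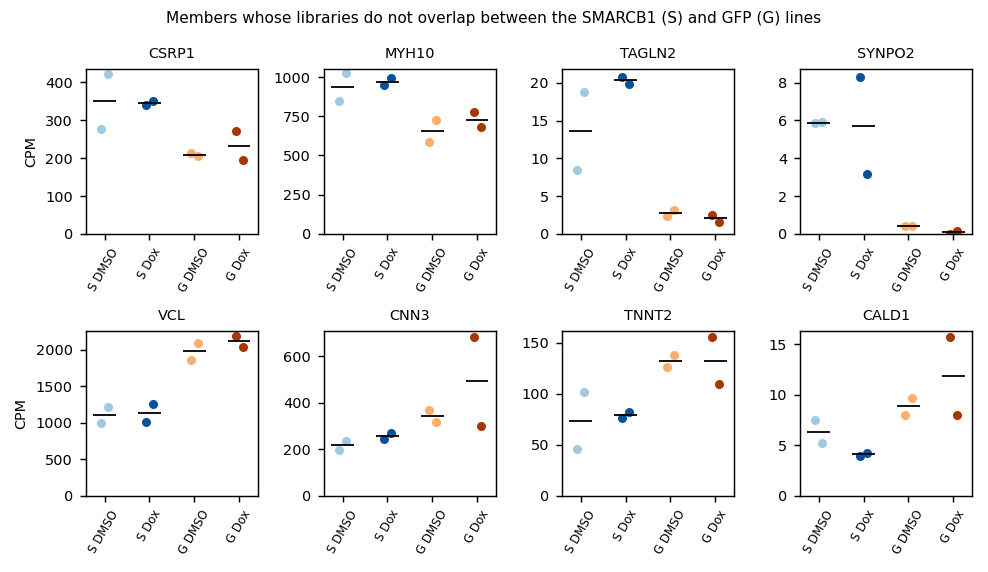
CPM (y axis, from 0) in each library (points) and the mean of the 2 replicates (bars) in SMARCB1 DMSO, SMARCB1 Dox, GFP DMSO and GFP Dox, for the 8 members whose libraries do not overlap between the lines. TAGLN2, SYNPO2, CSRP1 and MYH10 are higher in the SMARCB1 line, and VCL, CNN3, TNNT2 and CALD1 lower.

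**Figure D5:**
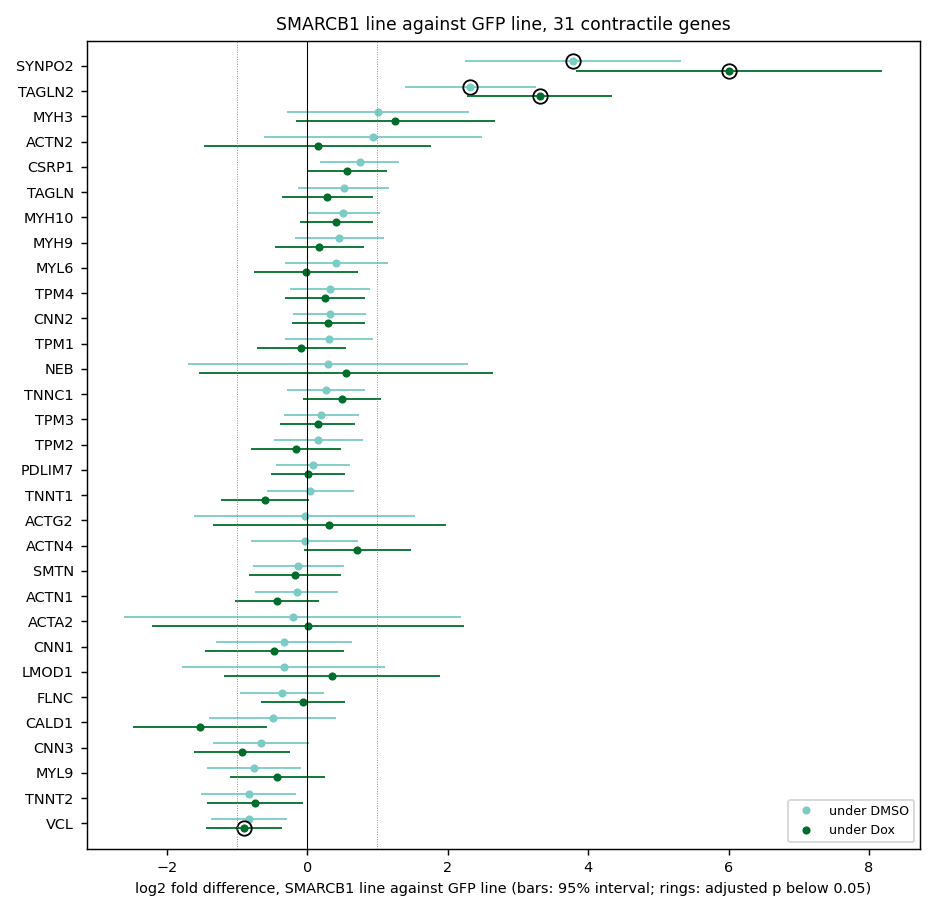
The log2 difference of the SMARCB1 line against the GFP line (x axis, bars give the 95% interval) under DMSO and under Dox for the 31 tested genes (y axis). Rings mark an adjusted p below 0.05, which SYNPO2 and TAGLN2 have in both comparisons and VCL under Dox.

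A further 113 genes of contraction were grouped as cytoplasmic actins and other myosin chains, other sarcomere genes, adhesion and cross-linking genes, the RhoA, ROCK and myosin phosphatase pathway, and SRF, MRTF and muscle transcription factors. Of these 113 genes, all chosen with earlier results of these data known, 71 were tested. For Dox, 0 were called by edgeR in the SMARCB1 line (8 with an unadjusted p below 0.05, against 4.97% of all genes), in the GFP line (1 with an unadjusted p below 0.05, against 2.16%) or in the difference between the lines (0 with one, against 3.99%), and DESeq2 called 0, 0 and 0. ACTB was at -0.06 (SE 0.29, edgeR adjusted p = 1) and ACTG1 at 0.24 (SE 0.31, edgeR adjusted p = 1) for Dox in the SMARCB1 line. Under DMSO 5 of the 71 were called higher and 6 lower in the SMARCB1 line, together 15.5% against 4.97% of all genes. Under Dox 7 were called higher and 3 lower, together 14.1% against 6.08%. Among genes that reached 10 counts in each library, 4 of the related genes were called under DMSO and 3 under Dox. Of all 9424 genes tested that way, 288 and 377 were called. The number of related genes tested that way is not given here, so no share can be set against the others. The list of other sarcomere genes had 5 of its 14 tested genes called in each comparison, 2 higher and 3 lower under DMSO and 3 higher and 2 lower under Dox. Both line comparisons called 2 genes of the list of cytoplasmic actins and other myosin chains. Of the RhoA list, 2 genes were called lower under DMSO and 0 under Dox (3 with an unadjusted p below 0.05).

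Of the calls that ranked first by p-value, MYH2, MYH8, ANKRD1, MEF2C and PPP1R14A had edgeR adjusted p-values of 1.17e-06 to 0.0024 under DMSO, and MYH2, ANKRD1, MYH8, MEF2C, PDLIM3 and ACTN3 of 5.87e-06 to 0.00416 under Dox. Copied windows were not searched for in these genes, so how far reads of MYH2 and MYH8 could be assigned to one heavy chain is not known. MYH2, a fast skeletal heavy chain, had 16 to 28.4 CPM in the SMARCB1 line and 0 to 0.165 in the GFP line. MYH8, the perinatal heavy chain, had 7.28 to 21.2 CPM in the SMARCB1 line and 0 counts in the GFP line, which made it at least 171-fold higher under DMSO and at least 38.3-fold under Dox, with 3 counts over the group as the limit and 95% counting intervals that start at 138 and 30.8. ANKRD1, a stretch-responsive Z-disc and I-band repeat protein, had 29.3 to 39.7 CPM in the SMARCB1 line against 0 to 1.99. PDLIM3, a Z-disc protein that binds α-actinin, had 3.67 to 10.6 CPM against 0 to 0.444. Lower in the SMARCB1 line were MEF2C, a muscle and neural transcription factor, with 0 to 0.312 CPM against 7.25 to 10.7, and ACTN3, the fast fibre α-actinin, with 0 to 0.667 against 5.46 to 8.87. PPP1R14A, the inhibitor CPI-17 of myosin phosphatase, had 13.7 to 25.1 CPM in the SMARCB1 line against 39.8 to 47.6. Other than PPP1R14A, these genes passed the filter on low counts through the line in which they are high alone, so their calls are not independent of it.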

How the data were processed

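Ribosome footprints were captured from G401 cells with the RiboLace kit (Immagina). The authors deposited raw counts per gene, made with STAR and HTSeq (versions not given in the sources used here) on build hg38 with GENCODE annotation 42, counting reads that lie wholly within coding exons (intersection-strict). The handling of duplicates and the strand option are not given in the sources used here. Each file ends in 5 HTSeq summary rows, which entered neither totals nor tests. The matching RNA-seq was not used here, so footprint levels are not divided by mRNA levels. Symbols, positions and coding lengths were taken from GENCODE annotation 44 on GRCh38 by gene ID, and 311 of 20719 IDs had no match.

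Counts were filtered with filterByExpr, scaled with TMM and fitted with glmQLFit in edgeR 4.0.16 (R 4.3.3) over all 8 libraries with 1 term per group. DESeq2 1.42.0 was an alternative. Adjusted p-values are Benjamini-Hochberg over 11097 genes. Genes were called at an adjusted p below 0.05 and a fold above 2. The 39 genes, the muscle classes and the lists of related genes were chosen with earlier results of these data known. A fold change is given for members with an adjusted p below 0.05, for those with an unadjusted p below 0.05 in the Dox comparisons and their difference, and for the 3 members with the smallest p per comparison. Of the related lists, the called genes with the smallest p (at most 6 per comparison), ACTB and ACTG1 are named, except for 1 gene that is not reported here. MYLK and the members described by non-overlapping libraries were picked out after their values were seen. The study's methods state duplicates, but not whether these were separate cultures, so p-values measure only the spread between these libraries. Depth was 5924443 to 14000039 counts per library, and a count of 0 allows up to 3 counts.

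Coding sequence was cut into windows of 28 bases and matched exactly to the genome and its transcripts. Alternatives were other scalings, filters, sample sets and dispersion, DESeq2, the replicate number as a block, and each library left out in turn.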

Additional observations from a re-analysis of the deposited data

How the results depend on the processing

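The counts of called members in the Dox comparisons of both lines and in their difference were 0 under all alternatives run. Between lines, requiring at least 10 counts in every library left 1 called member under DMSO and 1 under Dox in place of 2, since SYNPO2 is then not tested. Leaving out single libraries changed which members were called between lines. Such a fit leaves 1 library in a group, which is assumed to vary like the other groups. Under DMSO neither SYNPO2 nor TAGLN2 was called without GFP DMSO replicate 1, and SYNPO2 was not called without GFP DMSO replicate 2. Without SMARCB1 DMSO replicate 2, TNNT2 was called and TAGLN2 was not. Under Dox, leaving out GFP Dox replicate 2 added ACTN4, CALD1 and CNN3, and more of all genes were called as well. With the replicate number as a replicate block the counts were 0, 0, 0, 2 and 3 in the order of the 5 comparisons, CALD1 being the added one. Same-numbered libraries had correlated deviations of 0.0454 to 0.280 (Pearson's r across genes), all above 0. The main fit has no term for the replicate number, and the block is the alternative that has one. Some log2 fold changes turned sign, none past the threshold in either fit. By library size alone ACTB was at 0.0632 for Dox in the SMARCB1 line. With single libraries left out, for Dox in the SMARCB1 line TPM1 ran from -0.757 to 0.0371, ACTB from -0.357 to 0.321 and ACTG1 from -0.0717 to 0.626. For Dox in the GFP line CNN3 ran from -0.192 to 0.991 and ACTG1 from -0.660 to 0.16. ACTB ran from -0.127 to 0.550 for the difference between Dox effects. Between the lines under DMSO, ACTB ran from -0.0404 to 0.638 and ACTG1 from -0.133 to 0.565. The cause was not tested. VCL under DMSO passed an adjusted p of 0.05 by library size alone (0.0225), with no filter (0.0405), with the block (0.0441) and by DESeq2 (0.00826), but not under the other alternatives run, and under Dox it lost the threshold under 6 alternatives. Library size alone moved the median of all tested genes from -0.03 to 0.16 in the difference between Dox effects and from -0.01 to 0.11 in the line comparison under Dox. Depth limits the 8 members that were not tested in the main fit. Among the related genes, leaving out GFP Dox replicate 2 gave calls for Dox in the GFP line and for the difference, in place of 0. More of all genes were called in those fits as well. Between lines, single libraries left out lowered the calls of related genes under DMSO from 11 and moved those under Dox both ways from 10. Requiring at least 10 counts in every library left 4 under DMSO and 3 under Dox, beside 288 and 377 of all 9424 genes tested that way.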
